A study of Mus musculus with 12 samples.

Results

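Expression of 10 genes of branched-chain amino acid catabolism was followed across 12 one-colour Agilent mouse arrays of NIH3T3 cells, an established mouse embryonic fibroblast line. The 10 genes were among 32678 genes with a probe on the array. That number, like all numbers of genes tested, also counts probe targets that matched no symbol, each under its own identifier. They were selected on earlier results of these same arrays, and each gene's probe was chosen by its mean intensity over the 12 arrays. The fold changes and adjusted p-values below therefore describe each gene and lend no support to the list as a whole. Cells were treated for 18 h with 2 µM PP242, with 50 nM rapamycin or with the solvent DMSO, in 4 arrays each, and all groups were the same line. The treatment protocol gives PP242 in mM, whereas the design text and the sample characteristics give µM, which is used here. The 4 samples of a condition are described as separate experiments.

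Leucine, isoleucine and valine are first transaminated to branched-chain keto acids by Bcat1 in the cytosol or Bcat2 in mitochondria. The keto acids are then decarboxylated by a mitochondrial dehydrogenase complex, the committed step. Bckdha and Bckdhb form its decarboxylase, Dbt is its acyltransferase core, and Dld is a dehydrogenase shared with the pyruvate and 2-oxoglutarate complexes. The kinase Bckdk phosphorylates Bckdha and switches the complex off. Ivd and the biotin-dependent carboxylase of Mccc1 and Mccc2 carry the leucine branch onward. Leucine is also a signal that activates the mTOR kinase. Rapamycin inhibits mTOR allosterically, mainly in its complex 1, and PP242 competes with ATP at the active site of the kinase in both of its complexes.

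The promoters of 3 genes on which the results turn, Bckdha, Mccc1 and Bcat1, are shown because the first pair was higher and Bcat1 lower with PP242. They are RefSeq windows of 300 bases in build GRCm38.p6, from 250 bases before to 50 after the annotated start, all on the minus strand. RefSeq windows were found for 9 of the 10 genes. Capitals mark matches on either strand to the letters CCAAT, known as the CCAAT box and bound by the factor NF-Y. They also mark the letters AANATGG, a core of the motif of the factor YY1. The Bckdha window is chr7:25658712-25659011, that of Mccc1 is chr3:36000629-36000928 and that of the first Bcat1 start is chr6:145076108-145076407.
Bckdha: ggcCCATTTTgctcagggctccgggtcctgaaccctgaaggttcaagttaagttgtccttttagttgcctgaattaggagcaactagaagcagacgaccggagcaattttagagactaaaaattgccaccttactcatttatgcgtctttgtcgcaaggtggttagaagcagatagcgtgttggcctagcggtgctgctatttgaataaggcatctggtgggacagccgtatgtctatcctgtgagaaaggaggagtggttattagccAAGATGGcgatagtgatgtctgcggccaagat
Mccc1: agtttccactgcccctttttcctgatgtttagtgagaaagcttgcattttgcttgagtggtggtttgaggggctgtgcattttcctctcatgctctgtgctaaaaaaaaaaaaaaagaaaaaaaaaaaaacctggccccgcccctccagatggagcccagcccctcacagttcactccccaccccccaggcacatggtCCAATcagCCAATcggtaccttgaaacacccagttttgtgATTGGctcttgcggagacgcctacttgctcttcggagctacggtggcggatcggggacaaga
Bcat1: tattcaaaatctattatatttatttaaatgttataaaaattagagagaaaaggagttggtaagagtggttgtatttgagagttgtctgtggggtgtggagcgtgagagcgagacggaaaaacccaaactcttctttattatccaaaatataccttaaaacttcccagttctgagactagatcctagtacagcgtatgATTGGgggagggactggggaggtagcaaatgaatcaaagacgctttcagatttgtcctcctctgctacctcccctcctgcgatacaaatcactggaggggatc
Bckdha held 2 YY1 core matches and no CCAAT box, Mccc1 held 3 CCAAT boxes, and Bcat1 held 1, with no overlap between motifs. Windows of Bckdhb, Dld, Bckdk and Ivd, which did not pass with PP242, also held CCAAT boxes. Those of Bcat2, which did not pass, and of the second Bcat1 start held none. Among 32851 promoter windows of this length, 16.1% held the YY1 core and 37.4% held a CCAAT box. The window of Mccc2, not shown, held 1 match to the E-box letters CACGTG (7.15% of windows) and 3 CCAAT boxes. The E-box letters were found in none of the 3 windows shown. The FoxO letters GTAAACA (3.65% of windows) were not found there either, nor were the ATF4 letters TGATGNAAN (3.95%) or the cyclic AMP response letters TGACGTCA (1.79%). A match describes letters only.

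Among the 12, 4 arrays stood apart. On PP242 replicates 1 and 4, rapamycin replicate 3 and DMSO replicate 2, 77.9% to 97.9% of probes were well above background, against 55.7% to 60.4% on the other 8. The ratio of the 75th to the 25th percentile of intensity was 7.12 to 51.1 on those 4 arrays and 261 to 420 on the 8. Results are given from the 8 arrays (2 PP242, 3 rapamycin, 3 DMSO) and from all 12. Levels are log2 intensity minus the array's 75th percentile, and are compared between groups for one probe only. All 8 fibroblast markers were well above background on all 12 arrays. Of 23 markers of other cell types on the array, 13 were above background on none of the 8 arrays and 4 on all of them (Cd14, Cd3e, Tubb3 and Acta1). On the 8 arrays, 2 of those 4 were lower with PP242 than with DMSO, against 15.0% of all genes tested. They were Cd14 (log2 fold change -0.99 ± 0.08, limma adjusted p = 0.0004924) and Tubb3 (-0.97 ± 0.24, limma adjusted p = 0.02377). Cd14 averaged 0.48 with PP242, 0.95 with rapamycin and 1.47 with DMSO, and Tubb3 averaged -1.86 with PP242, -1.41 with rapamycin and -0.89 with DMSO. Of the fibroblast markers, Pdgfrb was higher with PP242 (0.82 ± 0.17, limma adjusted p = 0.01348), against 14.3% of all genes tested. The other 7 did not pass. The part of these markers in the results was not tested. The 10 genes were well above background on all 12 arrays.

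**Figure D1:**
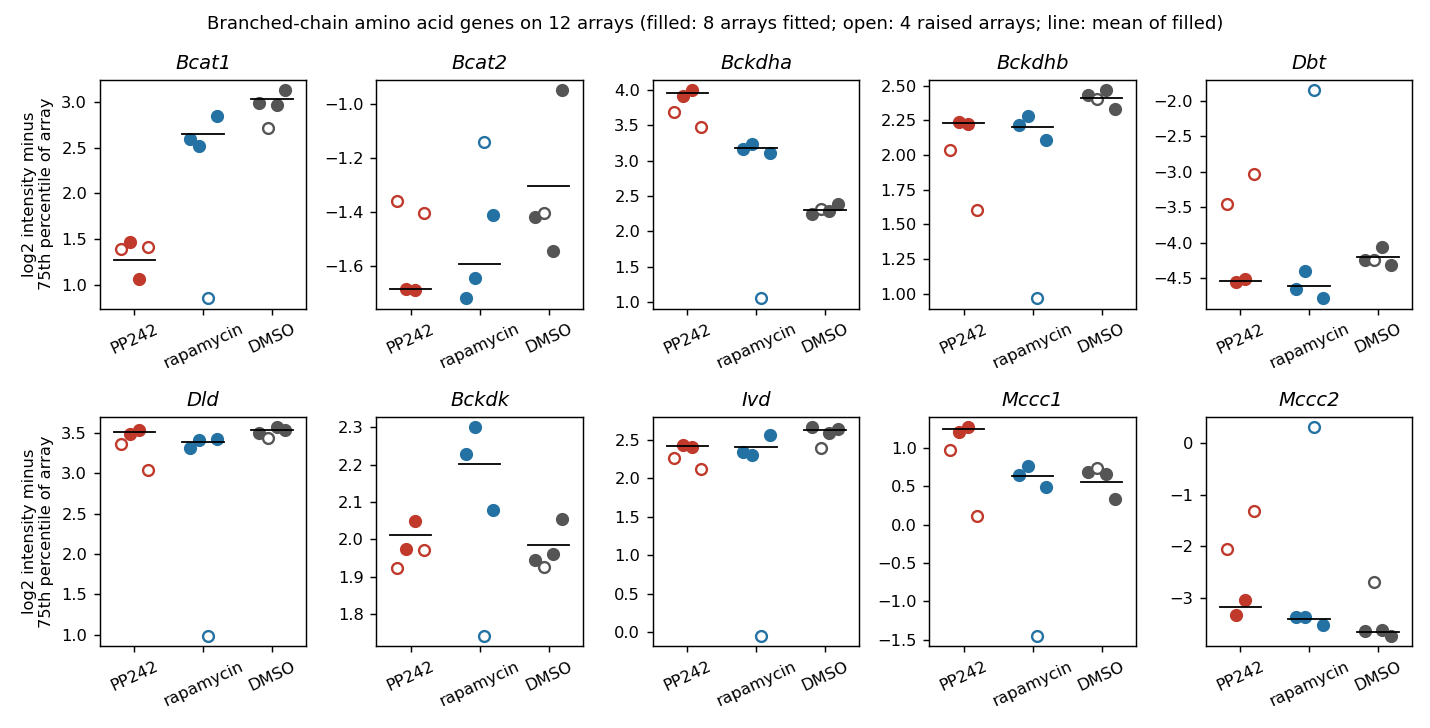
Level of each of the 10 genes (log2 intensity minus the array's 75th percentile) on every array, with PP242, rapamycin and DMSO from left to right. Filled points are the 8 arrays and open points the 4 arrays that stood apart, lines are means of the filled points, and each panel has its own scale. Bckdha lies in 3 separate steps among filled points, and rapamycin replicate 3 lies far from its group for most genes.

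With PP242, Bckdha, the alpha subunit of the decarboxylase, rose 3.13-fold on the 8 arrays, and Bcat1, the cytosolic transaminase, fell 3.41-fold. Both subunits of the leucine-branch carboxylase, Mccc1 and Mccc2, rose by less. Of 11 alternative settings, 2 ended the call of Mccc1 and 9 that of Mccc2. In RNA from whole cultures, fewer cells expressing a gene and less RNA per cell cannot be told apart. The other 6 genes, including every other subunit of the dehydrogenase complex and its kinase, did not pass the test. In all, 3 of the 10 were higher, against 14.3% of the 18040 genes tested, and 1 was lower, against 15.0%. The members' median log2 fold change was -0.10, against -0.01 over all genes tested. The groups did not overlap for 8 of the 10, against 61.2% of all genes tested.

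Bckdha levels were 3.69, 3.91, 4.00 and 3.48 with PP242 (replicates 1 to 4) and 2.25, 2.32, 2.29 and 2.39 with DMSO. The groups did not overlap, with or without the 4 arrays. Its log2 fold change was 1.64 ± 0.09 (SE) on the 8 arrays, with a limma adjusted p of 0.0002758. On 12 arrays it was 1.46 ± 0.45, with a limma adjusted p of 0.2531. A second Bckdha probe gave 1.69 on the 8 arrays and 1.36 ± 0.23 on 12, where it passed in the fit of all probes (limma adjusted p = 0.03299). On the 3 slides taken one at a time, over the 12 arrays, the difference was 1.59, 1.42 and 1.40 (slides 1, 2 and 3). Each value rests on 1 or 2 arrays per group, and slides 2 and 3 include arrays that stood apart. Among the 8 arrays, only slide 1 held both PP242 and DMSO.

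Bcat1 levels were 1.39, 1.47, 1.06 and 1.41 with PP242 and 2.99, 2.72, 2.97 and 3.13 with DMSO. Every PP242 array was below every DMSO array. The log2 fold change was -1.77 ± 0.16 on the 8 arrays (limma adjusted p = 0.0006684) and -1.62 ± 0.40 on 12 (limma adjusted p = 0.1341). The within-slide differences over the 12 arrays were -1.60, -1.49 and -1.58, with the same limit of 1 or 2 arrays per group. A second Bcat1 probe gave -1.32 on the 8 arrays and -0.75 ± 0.51 on 12 (limma adjusted p = 0.7593). Bcat2, the mitochondrial transaminase, had a log2 fold change of -0.39 ± 0.19 with a limma adjusted p of 0.1866.

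Mccc1, the biotin-carrying subunit, had levels of 0.96, 1.21, 1.26 and 0.11 with PP242 and 0.68, 0.74, 0.66 and 0.34 with DMSO. The groups were apart on the 8 arrays and overlapped on 12, where PP242 replicate 4 was the lowest. The log2 fold change was 0.68 ± 0.14 on the 8 arrays (limma adjusted p = 0.01327) and 0.28 ± 0.48 on 12, and a second probe gave 0.70 on the 8 and 0.56 ± 0.23 on 12. The within-slide differences over the 12 arrays were 0.70, -0.05 and 0.31. The call on the 8 arrays was lost with the slide as a block (limma adjusted p = 0.109) and with median centring (0.06605). It also rested on both PP242 arrays: the limma adjusted p was 0.07107 without PP242 replicate 2 and 0.0927 without PP242 replicate 3.

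Mccc2, the partner subunit, had levels of -2.06, -3.33, -3.04 and -1.31 with PP242 and -3.65, -2.68, -3.62 and -3.73 with DMSO. The highest values were on arrays that stood apart. Its log2 fold change was 0.49 ± 0.12 on the 8 arrays (limma adjusted p = 0.02345), and 9 of 11 alternative settings ended the call. On 12 arrays it was 0.99 ± 0.83 (limma adjusted p = 0.7953). The call on the 8 arrays was also lost without DMSO replicate 1 (limma adjusted p = 0.05675), without DMSO replicate 3 (0.05457) and without PP242 replicate 3 (0.1688). A second, dimmer probe gave 0.55 on the 8 with a limma adjusted p of 0.3734. The within-slide differences over the 12 arrays were 0.36, 0.51 and 1.56.

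Within the complex, the partners of Bckdha had small fitted differences on the 8 arrays, as did Ivd of the leucine branch. Bckdhb had a log2 fold change of -0.18 (95% interval -0.40 to 0.05). Dbt had -0.33 (-0.67 to 0.01), with the opposite sign on 12 arrays (0.33 ± 0.63), and Dld had -0.02 (-0.23 to 0.18). Bckdk, the inhibitory kinase, had 0.025 (-0.22 to 0.27), and Ivd, which oxidises isovaleryl-CoA, had -0.21 (-0.46 to 0.04). With array quality weights, Bckdhb (-0.21), Dbt (-0.39) and Ivd (-0.20) passed on the 8 arrays, as did 8987 of all 18040 genes tested. Dbt also passed with the replicate number as a block (-0.51). A missed threshold does not show that these genes were equal between groups. On all 12 arrays none of the 10 genes passed the test with PP242, against 0.391% of the 25548 genes tested, and 2 had an unadjusted p under 0.05, as did 2315 of all genes. Over all genes tested on 12 arrays, the median fitted difference was 0.38 on the log2 scale. Without rapamycin replicate 3, Bckdha and Bcat1 passed, a count of 2.

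**Figure D2:**
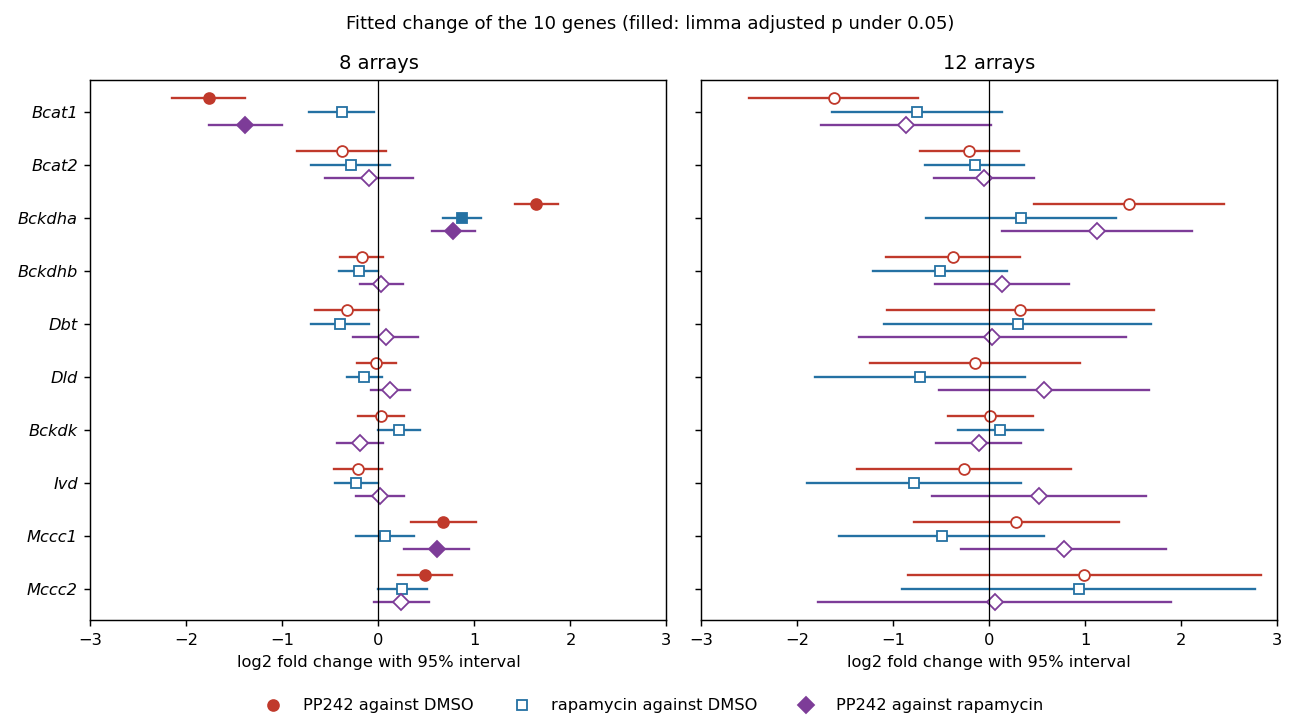
Log2 fold change of the 10 genes with its 95% interval for PP242 against DMSO, rapamycin against DMSO and PP242 against rapamycin, from 8 arrays (left) and 12 arrays (right). Filled symbols passed the limma test, and the intervals are wider on 12 arrays, where no symbol is filled.

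With rapamycin, Bckdha rose 1.82-fold on the 8 arrays and was the 1 gene of the 10 to pass, against 0.122% of all genes higher and 0.0665% lower. Its levels were 3.17, 3.24, 1.06 and 3.11 with rapamycin, against the DMSO levels of 2.25 to 2.39. The 3 other rapamycin arrays were above every DMSO array, and replicate 3 was below them all. The log2 fold change was 0.87 ± 0.08 (limma adjusted p = 0.04576) on the 8 arrays and 0.33 ± 0.45 (limma adjusted p = 0.8327) on 12. A second probe gave 0.80 on the 8, with a limma adjusted p of 0.08512. The within-slide differences over the 12 arrays were 0.85, 0.92 and -0.21, and the last slide holds rapamycin replicate 3.

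The call of Bckdha with rapamycin lay close to the threshold. It was lost in 6 of 8 fits that each left out 1 array: without DMSO replicate 1 (limma adjusted p = 0.2232), DMSO replicate 3 (0.2487), rapamycin replicate 1 (0.2363), rapamycin replicate 2 (0.2135), PP242 replicate 2 (0.1735) or PP242 replicate 3 (0.1706). With the slide as a block, no gene of all those tested passed.

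Bcat1 levels with rapamycin were 2.59, 2.52, 0.85 and 2.84, against the DMSO levels of 2.72 to 3.13. On the 8 arrays the groups were apart, with a log2 fold change of -0.38 ± 0.14 that did not pass (limma adjusted p = 0.3099). On 12 arrays the value was -0.76 ± 0.40 and the groups overlapped. Mccc1 levels were 0.65, 0.76, -1.44 and 0.49 with rapamycin, with a log2 fold change of 0.07 ± 0.13 on the 8 arrays and -0.49 ± 0.48 on 12. Mccc2 levels were -3.37, -3.37, 0.30 and -3.53, with 0.25 ± 0.11 on the 8 arrays and 0.93 ± 0.83 on 12. For both genes rapamycin replicate 3 lay far from the other 3, and neither gene passed. Of the other members on the 8 arrays, Dbt had -0.40 (95% interval -0.70 to -0.10), Bckdhb -0.21 (-0.41 to -0.0038) and Ivd -0.23 (-0.45 to -0.0054). Bckdk had 0.22 (-0.0002 to 0.43), Dld -0.15 (-0.33 to 0.04) and Bcat2 -0.29 (-0.70 to 0.12), and none of these 6 passed. On 12 arrays Dbt had the opposite sign, at 0.30 ± 0.63. The groups did not overlap for 8 of the 10 genes, against 19.1% of all genes tested. On 12 arrays none of the 10 passed, as for 0% of all genes. An unadjusted p under 0.05 was reached there by 0 of the 10 and by 454 of the 25548 genes tested, and on the 8 arrays by 5 of the 10 and by 2508 of the 18040.

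Set against rapamycin, PP242 gave higher Bckdha and Mccc1 and lower Bcat1, and the other 7 genes did not pass. Those 2 higher genes stand beside 8.09% of all genes tested, and the 1 lower gene beside 8.24%. The groups did not overlap for 6 of the 10, against 55.5% of all genes tested. The Bckdha log2 fold change was 0.78 ± 0.09 (limma adjusted p = 0.003348), and that of Bcat1 was -1.39 ± 0.16 (limma adjusted p = 0.002977). Mccc1 differed by 0.61 ± 0.14 (limma adjusted p = 0.03205), a call lost without any one of DMSO replicate 3 (limma adjusted p = 0.05504), rapamycin replicate 1 (0.08208), rapamycin replicate 2 (0.05537), rapamycin replicate 4 (0.06078), PP242 replicate 2 (0.1472) or PP242 replicate 3 (0.1862). That call was also lost with the slide as a block (limma adjusted p = 0.1407), the replicate number as a block (0.06386), median centring (0.09017) or no filter (0.08593). On 12 arrays the log2 fold changes were 1.12 ± 0.45 for Bckdha, -0.87 ± 0.40 for Bcat1 and 0.78 ± 0.48 for Mccc1. There no member passed, as for 0% of all genes, and 1 had an unadjusted p under 0.05, as did 1058 of the 25548 genes tested. Without rapamycin replicate 3, 2 passed. The 3 comparisons share arrays, and the compounds were each used at a single dose.

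**Figure D3:**
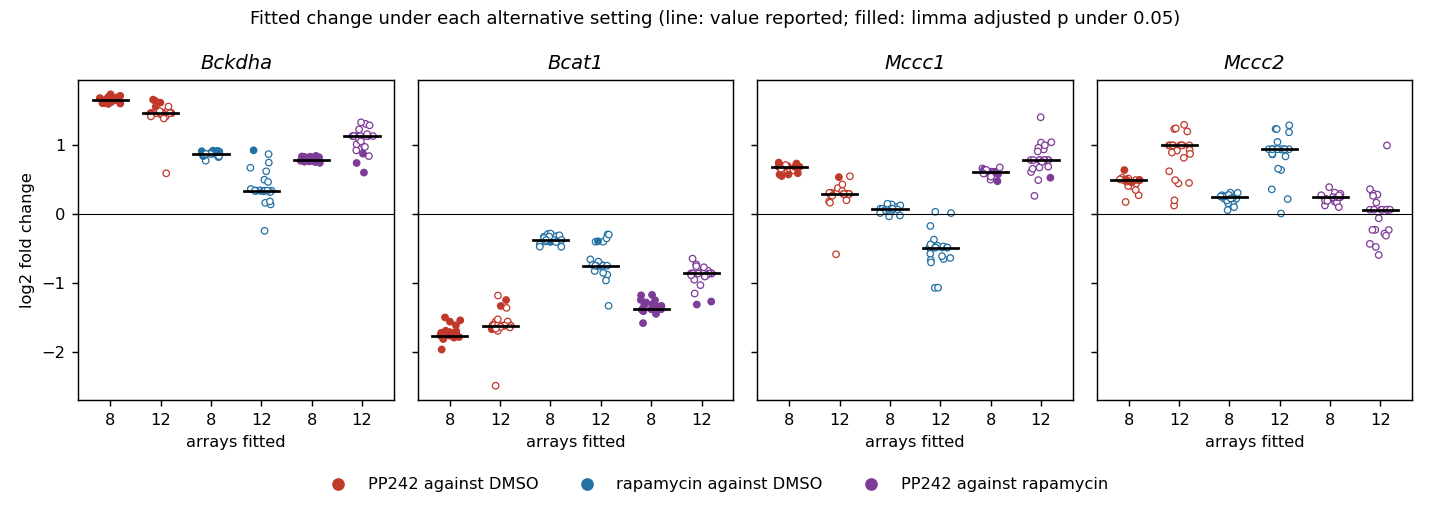
Log2 fold change of Bckdha, Bcat1, Mccc1 and Mccc2 under each alternative setting and with each array left out, for 8 and 12 arrays in each comparison. Lines are the values reported and filled points have a limma adjusted p under 0.05. For PP242 against DMSO on the 8 arrays, Bckdha stays between 1.59 and 1.73 over 11 settings with no array left out, and Bcat1 between -1.82 and -1.505.

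Other genes of the pathway, and the genes of sister complexes below, were listed with earlier results of these same arrays known. Their counts therefore lend no support to either list as a whole. Of 21 other genes of the pathway, 20 were on the array. On the 8 arrays with PP242, 7 were higher and none was lower, with a median log2 fold change of 0.20, against 14.3% of all genes higher and 15.0% lower. Without PP242 replicate 3 the count was 2 and without PP242 replicate 2 it was 4. Aldh6a1, the valine-branch methylmalonate semialdehyde dehydrogenase, rose 3.86-fold (log2 1.95 ± 0.12, limma adjusted p = 0.0002758). Its levels were 1.62, 1.92, 1.94 and 1.09 with PP242 and -0.11, -0.17, 0.01 and 0.04 with DMSO, with no overlap. Mmab, which makes adenosylcobalamin for methylmalonyl-CoA mutase, rose 2.29-fold, and Hlcs, which attaches biotin to carboxylases including that of Mccc1, rose 1.82-fold. Mcee, methylmalonyl-CoA epimerase, rose 1.65-fold, Hibch, a valine-branch hydrolase, 1.48-fold, and Acadsb, an acyl-CoA dehydrogenase, 1.44-fold. With 1 array left out, Acadsb passed in 2 of 8 fits and Mcee in 6, whereas Aldh6a1 and Mmab passed in all 8. Oxct1 (-0.36 ± 0.13) and Hsd17b10 (-0.04 ± 0.11) did not pass.

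With rapamycin, Aldh6a1 was the 1 gene of those 20 to pass, against 0.122% of all genes higher and 0.0665% lower. Its levels were 1.19, 1.04, -1.23 and 0.85, with a log2 fold change against DMSO of 1.05 ± 0.11 (limma adjusted p = 0.04576). Of 11 settings, 7 ended that call, and of 8 fits that each left out 1 array, only the fit without rapamycin replicate 4 kept it. Against rapamycin, 8.09% of all genes were higher with PP242 and 8.24% lower. Of the 20, 4 were higher (Aldh6a1 0.90, Hibch 0.54, Mcee 0.55 and Pccb 0.39) and 1 was lower, Btd, the biotinidase, at -0.51. The count of 5 was 0 without PP242 replicate 3, 1 without PP242 replicate 2, rapamycin replicate 1 or rapamycin replicate 2, 2 without rapamycin replicate 4, 3 without DMSO replicate 1 or 3 and 8 without DMSO replicate 4.

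Genes of the sister complexes, which share Dld or the lipoyl cofactor, did not move one way with PP242: of 15 on the array, 2 were higher and 4 lower, against the same 14.3% and 15.0% of all genes. The count of 6 became 2 without PP242 replicate 2 or 3 and 10 without rapamycin replicate 4. The pyruvate dehydrogenase kinases went apart, with Pdk2 3.01-fold higher and Pdk1 1.77-fold lower. The phosphatase Pdp1 was 2.02-fold higher. Pdhx (-0.63), Gcsh (-0.53) and Ogdh (-0.46) were lower, with Gcsh passing in 2 of 8 fits that left out 1 array and Ogdh in 3. With rapamycin, 1 was lower, Pdk1, at -0.98 ± 0.11 (limma adjusted p = 0.04576), which passed in 1 of 8 such fits. Against rapamycin, PP242 gave 1 higher, Pdk2, at 1.38 ± 0.32, which passed in 3 of 8 such fits. Of all genes tested on the 8 arrays, 0.122% were higher and 0.0665% lower with rapamycin. For PP242 against rapamycin, 8.09% were higher and 8.24% lower. On 12 arrays no gene of either list passed in any of the 3 comparisons.

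**Figure D4:**
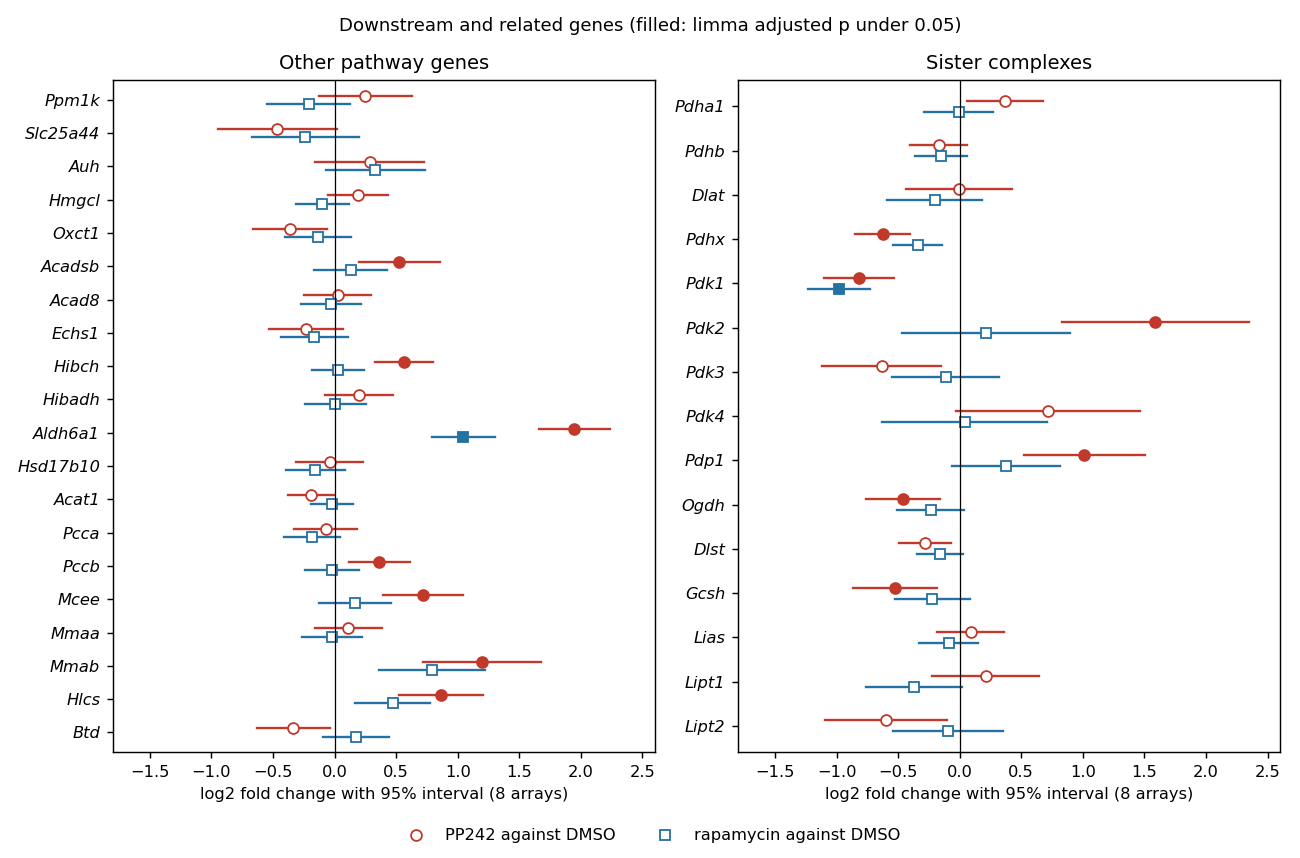
Log2 fold change with its 95% interval on the 8 arrays for 20 other pathway genes (left) and 15 genes of sister complexes (right), for PP242 against DMSO and rapamycin against DMSO. Filled symbols passed the limma test. On the left, 7 pathway genes are filled and higher with PP242, with Aldh6a1 farthest out, whereas filled sister-complex genes lie on both sides of 0.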

How the data were processed

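Per the labels' protocols, total RNA was amplified with a whole transcriptome kit and labelled with Cy3. The deposited scanner files hold linear intensity, which per the file headers Agilent Feature Extraction 10.5.1.1 had background-subtracted (the submitters' processing notes name 10.1). The authors' deposited value table holds log2 values with column medians of 8.54 to 8.56, with the tool behind them not stated in the labels; it served as an alternative. From the intensity, log2 was taken and each array's 75th percentile subtracted. Control spots and 6611 outlier-flagged values (1.34%) were left out. RefSeq accessions of 24844 of 26382 probes were matched to symbols. The rest of the 41174 probes kept their own identifier, which was counted as a gene. Each gene took its brightest probe, kept if well above background on 4 of the arrays fitted. limma 3.58.1 in R 4.3.3 (lmFit, eBayes) was fitted on 8 and on 12 arrays, with two-sided tests and Benjamini-Hochberg adjustment over all genes at 0.05. The 8 arrays have a ratio of the 75th to the 25th percentile above 100. The code was tested on simulated data. In the reported fits all groups shared an estimate of each gene's spread, so leaving out an array of any group can change every comparison. A p-value weighs the difference between groups against that spread, and the number of arrays limits precision. From each of the 2 other lists, at most 6 passing genes per comparison (smallest adjusted p first) and at most 2 others (brightest first) were named. The members, lists and the choice of 8 arrays were made with earlier results of these data known. A gene of the marker lists is not reported here.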

Additional observations from a re-analysis of the deposited data

Results flagged for a closer look

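In each group of 4 arrays, the highest and lowest level of each of the 10 genes was compared with the rest by Dixon's test, 30 groups in all, and 9 had an array far from the others. Chance gives about 1 in 20 for a single group. The 10 genes were read from the same arrays, so the count of 9 cannot be set against that rate. Of the 9, 8 were on rapamycin replicate 3: Bckdha at 1.06, Bckdhb at 0.97, Dbt at -1.85, Dld at 0.99, Bcat1 at 0.85, Ivd at -0.05, Mccc1 at -1.44 and Mccc2 at 0.30. The ninth was Mccc2 at -2.68 on DMSO replicate 2. Both arrays are among the 4 that stood apart, and on rapamycin replicate 3 97.9% of probes were well above background.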

How the results depend on the processing

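Counts below are of the 10 genes passing limma at an adjusted p of 0.05. For PP242 against DMSO on 12 arrays the count of 0 became 1 with quantile normalisation, 2 with the deposited table, 2 with normexp, 1 with probes well above background on all arrays, 4 with array weights and 2 with only the 2 groups compared. For rapamycin against DMSO on 12 arrays it became 6 with array weights, and for PP242 against rapamycin 1 with normexp and 4 with array weights. With PP242 against DMSO on 12 arrays, 100 of all 25548 genes passed as reported. That number was 36 with quantile normalisation, 0 with median centring, 108 with the deposited table, 720 with normexp, 29 without a filter, 412 with probes well above background on all arrays, 153 with the mean of a gene's probes, 0 with either block, 8513 with array weights and 2835 with only the 2 groups. For rapamycin against DMSO the 0 became 4499 with array weights, and for PP242 against rapamycin 1 with the deposited table, 61 with normexp and 6229 with array weights. On the 8 arrays, PP242 against DMSO gave 4. It became 3 with quantile normalisation, the deposited table, normexp, no filter, the mean of a gene's probes or only the 2 groups compared. It became 2 with median centring or the slide as a block, and 7 with array weights. PP242 against rapamycin gave 3. That count became 2 with median centring, no filter, the slide as a block or the replicate block, and 4 with array weights. Rapamycin against DMSO gave 1 and became 0 with median centring, without a filter, with the slide as a block, with the replicate block or with only the 2 groups compared, and 6 with array weights. Array weights called 8987 of all 18040 genes for PP242 against DMSO on the 8 arrays, against 5290 without them. Leaving out 1 array gave 0 to 2, 0 to 0 and 0 to 2 for the 3 comparisons on 12 arrays (PP242 against DMSO, rapamycin against DMSO, PP242 against rapamycin) and 2 to 4, 0 to 1 and 2 to 3 on the 8. Bckdha and Bcat1 passed in every one of the 11 settings on the 8 arrays when PP242 was set against either DMSO or rapamycin. Over the 11 settings on the 8 arrays, 1896 to 8987, 0 to 3407 and 724 to 7504 of all genes passed in the same order of comparisons, against 5290, 34 and 2946 as reported. The other pathway genes passing numbered 1 to 13, 0 to 5 and 0 to 11, and the sister-complex genes 1 to 12, 0 to 4 and 0 to 12. Counts with 1 array left out, here and above, stand without the number of all genes passing in the same fit. They do not set the listed genes apart from the rest. Where leaving out an array left 1 PP242 array, it was assumed to vary like the other groups. The cause of these changes was not tested.

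Deviations of samples with the same replicate number correlated from -0.90 to 0.78 on 12 arrays (median -0.42, against 0.26 for other pairs) and from -0.31 to 0.76 on the 8 (median 0.40, against -0.04). No label gives a shared origin, and the numbers were not taken as pairs. The correlations cannot decide this, since with 2 PP242 arrays the deviations of each mirror those of the other. On the 8 arrays the highest correlations were between arrays of the same number, DMSO and rapamycin replicate 4 (0.76) and replicate 1 (0.62). With the replicate block the count was 4, 0 and 2 on the 8 arrays and 0 in each comparison on 12. On the 8 arrays it left Mccc2 (limma adjusted p = 0.061) and Bckdha with rapamycin (0.1546) short of the threshold, as it did Mccc1 against rapamycin (0.06386), and Dbt passed with PP242 (-0.51, 0.03604).

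No value that passed on the 8 arrays turned its sign. The log2 fold changes that turned did not pass in the reported fits, and the cause was not tested. With quantile normalisation, PP242 against DMSO gave Dld 0.081, Hsd17b10 0.061 on 8 arrays and Dbt -0.81, Dld 0.11 on 12 arrays. With quantile normalisation, rapamycin against DMSO gave Dbt -0.31 on 12 arrays. With quantile normalisation, PP242 against rapamycin gave Pdhb 0.017 on 8 arrays and Bcat2 0.026, Bckdhb -0.0098, Dbt -0.50, Mccc2 -0.60 on 12 arrays. With median centring, PP242 against DMSO gave Bckdk -0.025 on 8 arrays and Dbt -0.55, Bckdk -0.86, Mccc1 -0.59 on 12 arrays. With median centring, rapamycin against DMSO gave Mccc1 -0.028 on 8 arrays and Bckdha -0.25, Dbt -0.29, Bckdk -0.47 on 12 arrays. With median centring, PP242 against rapamycin gave Pdhb 0.031 on 8 arrays and Bckdhb -0.16, Dbt -0.26, Mccc2 -0.23 on 12 arrays. With the deposited table, PP242 against DMSO gave Dld 0.076, Hsd17b10 0.078 on 8 arrays and Dbt -0.40, Dld 0.069 on 12 arrays. With the deposited table, rapamycin against DMSO gave Dbt -0.17 on 12 arrays. With the deposited table, PP242 against rapamycin gave Pdhb 0.0014 on 8 arrays and Bcat2 0.045, Dbt -0.23, Mccc2 -0.44 on 12 arrays. With normexp, PP242 against DMSO gave Dld 0.091, Hsd17b10 0.069 on 8 arrays and Dbt -0.31, Dld 0.081 on 12 arrays. With normexp, rapamycin against DMSO gave Dbt -0.14 on 12 arrays. With normexp, PP242 against rapamycin gave Pdhb 0.011 on 8 arrays and Bcat2 0.027, Bckdhb -0.076, Dbt -0.16, Mccc2 -0.48 on 12 arrays. With the mean of a gene's probes, PP242 against DMSO gave Dld 0.027 on 8 arrays and Bcat2 0.41 on 12 arrays. With the mean of a gene's probes, rapamycin against DMSO gave Bcat2 0.34 on 12 arrays. With the mean of a gene's probes, PP242 against rapamycin gave Bckdhb -0.015 on 8 arrays and Bcat2 0.065 on 12 arrays. With the slide as a block, PP242 against DMSO gave Bckdk -0.050, Hsd17b10 0.027 on 8 arrays. With the replicate block, PP242 against DMSO gave Bckdk -0.016, Hsd17b10 0.018 on 8 arrays. With the replicate block, PP242 against rapamycin gave Bcat2 0.071, Bckdhb -0.035, Dbt -0.10 on 8 arrays. With array weights, PP242 against DMSO gave Dbt -0.24 on 12 arrays. With array weights, rapamycin against DMSO gave Dbt -0.37, Mccc1 0.0076 on 12 arrays. With array weights, PP242 against rapamycin gave Bcat2 0.0054 on 8 arrays and Bcat2 0.025, Bckdhb -0.025 on 12 arrays. For PP242 against DMSO on 8 arrays, leaving out 1 array gave Bckdk -0.013 to 0.062, Hsd17b10 -0.11 to 0.033. For PP242 against DMSO on 12 arrays, leaving out 1 array gave Bckdk -0.015 to 0.036. For rapamycin against DMSO on 8 arrays, leaving out 1 array gave Mccc1 -0.040 to 0.14. For rapamycin against DMSO on 12 arrays, leaving out 1 array gave Dbt -0.39 to 0.58, Mccc1 -0.71 to 0.026. For PP242 against rapamycin on 8 arrays, leaving out 1 array gave Ivd -0.031 to 0.099, Pdhb -0.058 to 0.0047, Bckdhb -0.017 to 0.070, Dbt -0.013 to 0.18. For PP242 against rapamycin on 12 arrays, leaving out 1 array gave Dbt -0.26 to 0.72, Mccc2 -0.32 to 0.99, Bcat2 -0.14 to 0.058, Bckdhb -0.17 to 0.27, Dld -0.028 to 0.78, Ivd -0.095 to 0.77.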
